A study of Homo sapiens with 6 samples.

Results

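The genes described are 8 markers of liver and bile duct lineages, SOX9, KRT8, KRT18, KRT19, KRT7, SPP1, CPS1 and SERPINA1, chosen by name as markers of hepatocytes, cholangiocytes and their progenitors. All 8 were among the 11593 gene symbols listed. They were measured in SK-Hep1, a human cell line labelled as hepatocellular carcinoma and with no other treatment named in the labels. The 6 libraries were labelled as ChIRP, a method in which biotinylated DNA probes antisense to an RNA pull that RNA down with what is crosslinked to it. In 3 libraries the probes were a complete set against the long noncoding RNA SNHG10, made by RiboBio, and in the other 3 they were a control set against LacZ, a bacterial gene, made by Millipore, so the target and the maker of the probes cannot be told apart. The series asked which messenger RNAs are associated with SNHG10. The protocol in the labels names total RNA and no pull-down step, so which fraction of the RNA these levels describe is not settled by the sources used here. SK-Hep1 is 1 line, and nothing in the labels states that replicates are separate cultures, so a p-value here speaks of library spread alone, and that spread may be technical. Only protein-coding transcripts were listed, so SNHG10, a noncoding RNA, could have no row whatever its level. It was not analysed here, and the labels could not be checked against it.

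Hepatocytes make most plasma proteins and detoxify ammonia, and cholangiocytes line the bile ducts. Both are epithelia that carry the simple keratins 8 and 18, which pair as a type II and a type I chain to form filaments, while keratins 7 and 19 are added in bile duct cells. SOX9 is a transcription factor of bile duct and progenitor cells, and SPP1 encodes osteopontin, a secreted ligand of integrins and CD44 made by bile duct cells and many tumours. CPS1, the first enzyme of the urea cycle, and SERPINA1, the plasma inhibitor of neutrophil elastase, are typical of mature hepatocytes. SK-Hep1 came from a liver tumour but has been described as endothelial in character.

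Levels are given as FPKM, fragments scaled by transcript length and library size, summed over the transcripts of a gene and so comparable between genes by length. Each library's FPKM total lay between 268794 and 277118. Depth is unknown in these files, so no counting interval or detection limit is given. KRT18, KRT8 and KRT19 stood far above the other markers, and both hepatocyte markers lay near 0. KRT18 averaged 1022 FPKM over the 6 libraries and ranked 23rd of the 11593 genes, KRT8 averaged 563 FPKM (rank 47) and KRT19 413 FPKM (rank 80). SOX9 averaged 45.3 FPKM (rank 909), SPP1 29.4 FPKM (rank 1505) and KRT7 18.8 FPKM (rank 2436), against a median of 6.53 FPKM over all listed genes. CPS1 averaged 0.931 FPKM and SERPINA1 0.568 FPKM, with 9.74% and 4.53% of genes lower. In bulk libraries fewer cells with a transcript and less of it per cell cannot be told apart. The 8 genes together held 0.699% to 0.819% of a library's FPKM.

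The order of the first 4 genes held in every library. KRT18 was 1.68 to 2.04 times KRT8, KRT8 was 1.14 to 1.58 times KRT19, and KRT19 was 8.33 to 9.83 times SOX9, with no overlap of their ranges. SOX9 exceeded SPP1 in 6 of 6 libraries, by 1.03 to 2.52 times, but their ranges over libraries overlapped. SPP1 exceeded KRT7 in 5 of 6 libraries, with overlapping ranges. KRT7 was 11.4 to 35.8 times CPS1. CPS1 was higher than SERPINA1 in 3 of 6 libraries. In 2 of these, LacZ replicates 2 and 3, SERPINA1 was listed at 0, which may stand for an estimate that failed. No order is therefore given for CPS1 and SERPINA1.

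**Figure D1:**
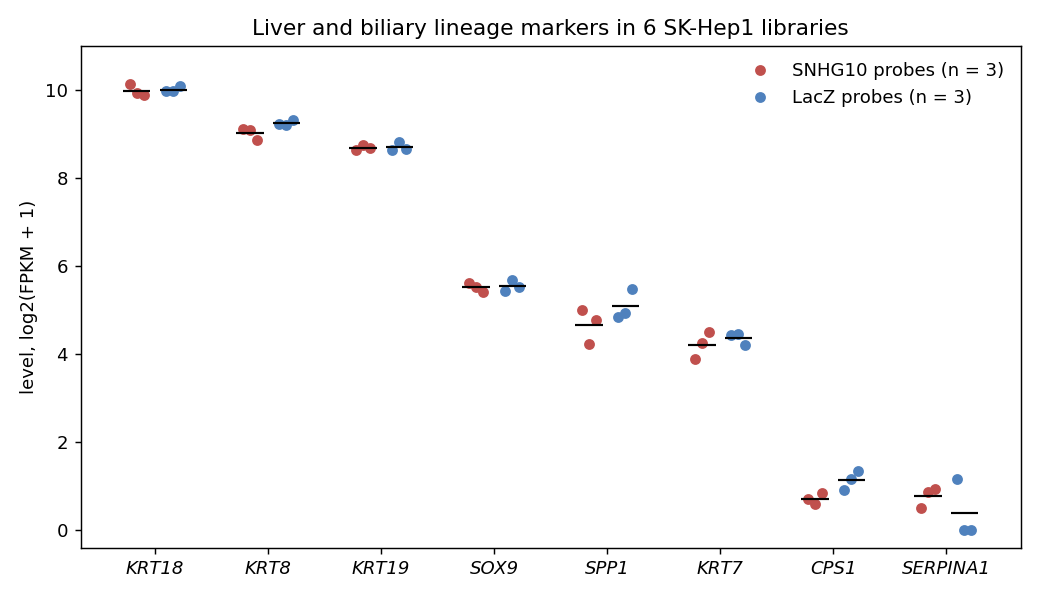
Level of each marker, as log2(FPKM + 1) on the vertical axis, in the 3 libraries with SNHG10 probes (red) and the 3 with LacZ probes (blue); points are libraries and horizontal lines are means. KRT18, KRT8 and KRT19 sit at the top, SOX9, SPP1 and KRT7 in the middle, and CPS1 and SERPINA1 near 0.

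No marker was called different between the probe sets. Differences were tested with limma on log2(FPKM + 1), a scale that shrinks the changes of genes with low levels, and are SNHG10 probes minus LacZ probes; a gene was called when its Benjamini-Hochberg adjusted p over 10304 genes was under 0.05. Of the 8 markers 6 had at least 1 FPKM in at least 3 libraries and were tested; CPS1 and SERPINA1 were not. Of those 6, 0 were called higher and 0 lower, where 0.0% of all genes tested were called in either direction, with limma adjusted p from 0.885 to 0.992. At an unadjusted p under 0.05 there was 1 of 6, KRT8, where 5.42% of all genes tested reached that. The libraries of the 2 probe sets did not overlap in 1 of 6, again KRT8, against 11.4% of all genes tested, and against 7.21% that did not overlap with SNHG10 lower. All 6 log2 differences were negative, as were 56.7% of those of all genes tested; with median-ratio scaling of the libraries 3 of 6 were negative. The median log2 difference was -0.09 over the 6 and -0.05 over all genes tested, and with that scaling -0.04 and -0.003. The spread within a probe set was small for the abundant markers: the SD on the log2 scale ran from 0.08 for KRT19 to 0.37 for SPP1, against a median of 0.40 over all genes tested.

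**Figure D2:**
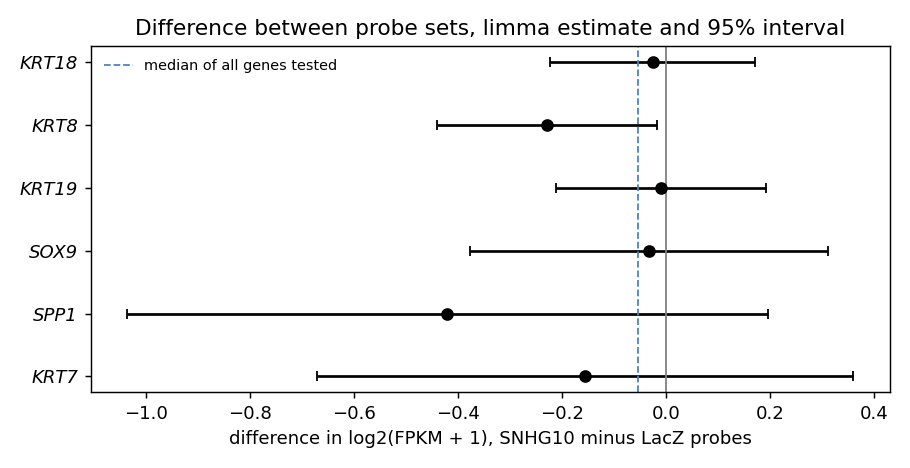
Difference in log2(FPKM + 1), SNHG10 minus LacZ probes, on the horizontal axis, for the 6 markers tested; points are limma estimates and bars are their unadjusted 95% intervals. The dashed line is the median of all genes tested, -0.05. The interval of KRT8 ends just below 0, and the other 5 span 0.

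KRT8 (ENSG00000170421, chromosome 12, 53290971 to 53343658, minus strand, hg19) encodes the type II keratin of simple epithelia. Its level was 549, 544 and 465 FPKM in the SNHG10 libraries and 601, 589 and 633 FPKM with LacZ probes. Every SNHG10 library lay below every LacZ library, and SNHG10 replicate 3 was the lowest. The means were 519 ± 46.8 and 608 ± 23.0 FPKM (SD, n = 3 each; two-sided exact permutation p = 0.1, the smallest that 3 against 3 libraries can give). The log2 difference was -0.23 ± 0.09 (SE), with a 95% interval of -0.44 to -0.02 and a limma adjusted p of 0.885, so it was not called.

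KRT18 (ENSG00000111057, chromosome 12, 53342655 to 53346685, plus strand) encodes the type I partner of keratin 8. Its level was 1122, 976 and 945 FPKM in the SNHG10 libraries and 1011, 1000.0 and 1081 FPKM with LacZ probes. The highest and the lowest library were both SNHG10 libraries, and the groups overlapped. The means were 1014 ± 94.2 and 1031 ± 43.6 FPKM (SD, 3 libraries each), and exact permutation gave p = 0.8. The log2 difference was -0.03 ± 0.09 (SE), with a 95% interval of -0.22 to 0.17 and a limma adjusted p of 0.974, and its sign turned positive with median-ratio or quantile scaling.

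The ratio of KRT8 to KRT18 within a library does not change when a library is scaled by a single factor, though quantile normalization can change it. With SNHG10 probes it was 0.490, 0.557 and 0.492, and with LacZ probes it was 0.594, 0.589 and 0.586. The 3 LacZ libraries lay close together and above all SNHG10 libraries, with means of 0.513 ± 0.0382 and 0.590 ± 0.00411 (SD, n = 3 each; exact permutation p = 0.1, the smallest possible). The ratio of KRT19 to KRT18 overlapped between the probe sets, at 0.356, 0.438 and 0.431 against 0.390, 0.449 and 0.372 (exact permutation p = 1). Type II over type I chains, KRT8 plus KRT7 over KRT18 plus KRT19, gave 0.370, 0.400 and 0.360 against 0.442, 0.421 and 0.439, again without overlap (exact permutation p = 0.1). KRT8 is the numerator of the KRT8 to KRT18 ratio and holds nearly all of this last numerator. Neither ratio is therefore an observation separate from the KRT8 difference. How often ratios of other genes do not overlap was not tested.

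**Figure D3:**
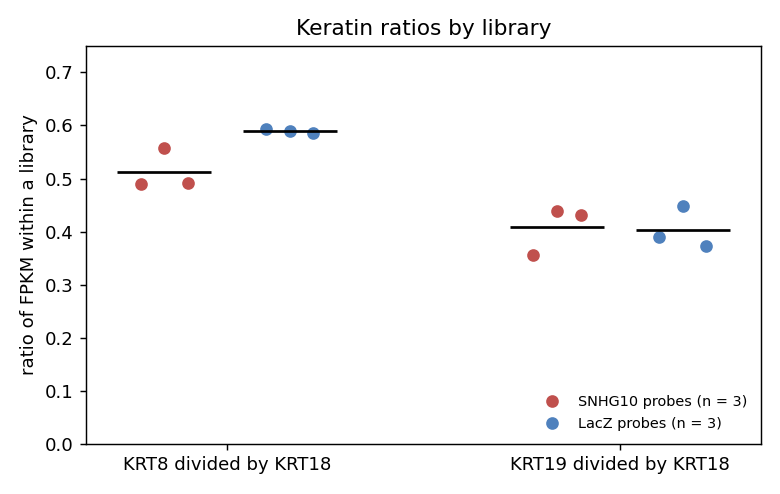
Ratio of FPKM within a library (vertical axis, from 0) for KRT8 over KRT18 and KRT19 over KRT18, with SNHG10 probes in red and LacZ probes in blue; points are libraries and lines are means. The KRT8 ratios lie between 0.490 and 0.557 with SNHG10 probes and between 0.586 and 0.594 with LacZ probes, while the KRT19 ratios overlap.

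Of the 22 listed transcripts of the 8 genes 18 were tested and 0 were called, where 0.0903% of all transcript rows tested were called; 1 had an unadjusted p under 0.05, against 5.66% of all rows, and 2 did not overlap, against 10.5%. KRT8 had 8 listed transcripts, and both that did not overlap were its own. KRT8-215 (chromosome 12, 53291081 to 53320253) stood at 296, 185 and 166 FPKM in the SNHG10 libraries and 341, 322 and 348 FPKM with LacZ probes, with no overlap. Its log2 difference was -0.69 ± 0.22 (SE), with a 95% interval of -1.22 to -0.16 and a limma adjusted p of 0.683 over 16618 transcript rows, so it was not called. KRT8-201, which ends in the same region but starts further downstream (53290978 to 53300402), read 181, 288 and 221 FPKM against 193, 205 and 208 FPKM, overlapping (exact permutation p = 0.5). SNHG10 replicate 2 had the highest KRT8-201 and a low KRT8-215, and KRT8-215 held 34.0% and 35.7% of KRT8 in SNHG10 replicates 2 and 3 against 53.8% to 56.8% in the other 4 libraries. The sum of the 2 transcripts was 477, 473 and 387 FPKM against 534, 527 and 556 FPKM, without overlap (exact permutation p = 0.1). This sum averaged 492 of the 563 FPKM of KRT8, so it largely restates the difference of the gene. KRT8 without KRT8-215 was 253, 359 and 299 FPKM against 260, 267 and 285 FPKM, overlapping (exact permutation p = 0.4). KRT8-215 had the smallest p of the KRT8 transcripts in these same data. Overlap without it therefore does not place the KRT8 difference in that transcript. KRT8-201 and KRT8-215 share most of the span of KRT8-201, so the division between them is itself an estimate.

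Of the other KRT8 transcripts, KRT8-210 was also lower in every SNHG10 library, at 3.54, 0 and 4.53 FPKM against 12.1, 5.18 and 4.66 FPKM (limma adjusted p = 0.951). That separation rests on 4.53 against 4.66 FPKM, and the listed 0 may stand for an estimate that failed. KRT8-202, KRT8-205, KRT8-206, KRT8-216 and KRT8-217 overlapped between the probe sets and read between 1.43 and 31.5 FPKM. The 4 transcripts KRT8-205, KRT8-210, KRT8-216 and KRT8-217 start inside the KRT18 gene on the opposite strand, with 906 to 1004 bases of shared span. They summed to 36.0, 38.6 and 46.4 FPKM with SNHG10 probes and to 41.0, 33.0 and 42.8 FPKM with LacZ probes (exact permutation p = 0.8). Whether strand was used in counting is not given in the sources used here, so KRT8 and KRT18 reads there cannot be told apart; KRT8 and KRT18 also have many processed pseudogenes, and their reads could be split. The remaining KRT8 transcripts, outside the KRT18 locus, summed to 513, 505 and 419 against 560, 556 and 590 FPKM (exact permutation p = 0.1). That sum averaged 524 of the 563 FPKM of KRT8 and so largely restates the difference of the gene.

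RefSeq's promoter table, on GRCh38.p14, held promoters of 4 of the 8 markers, KRT8, SPP1, CPS1 and SERPINA1, each 250 bases before and 50 after a transcription start. The KRT8 entry is shown because it belongs to an upstream start: from that start to the end of the RefSeq gene are 29279 bases, and KRT8-215 spans 29173 bases in hg19 while KRT8-201 spans 9425. No coordinate was carried between builds. Capitals mark the motifs searched on both strands, which were TATAAA (held by 11.5% of the 35116 promoters in the table), CCAAT (34.6%), GGGCGG (45.0%) and GTTAAT (6.88%); no motif lies inside another. None of these letters was found in the KRT8 window, so it has no capitals.
KRT8 promoter, chr12:52926420-52926719, minus strand: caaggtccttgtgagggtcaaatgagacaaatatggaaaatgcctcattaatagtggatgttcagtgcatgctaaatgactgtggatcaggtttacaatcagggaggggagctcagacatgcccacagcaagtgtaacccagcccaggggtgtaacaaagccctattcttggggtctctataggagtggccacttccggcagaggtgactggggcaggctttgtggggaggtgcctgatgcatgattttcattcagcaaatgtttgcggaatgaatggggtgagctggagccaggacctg

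**Figure D4:**
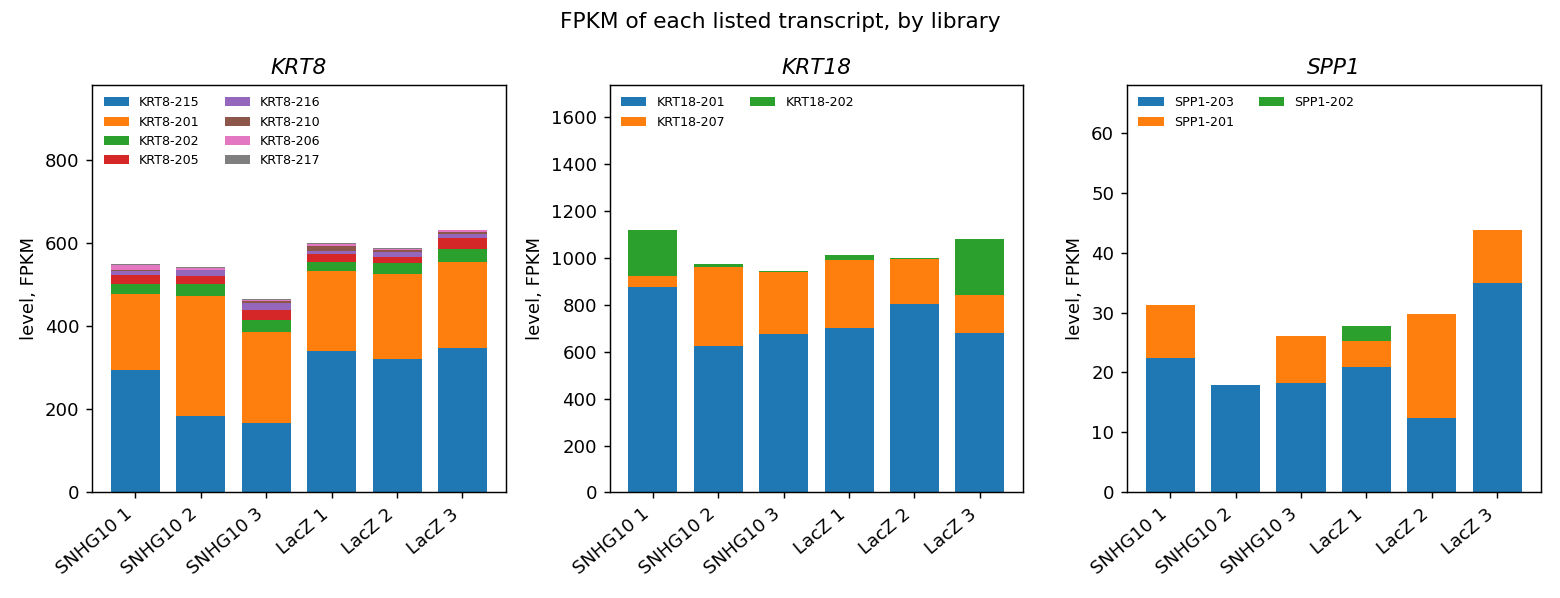
FPKM of each listed transcript of KRT8, KRT18 and SPP1 (vertical axis, from 0), stacked by library; each colour is 1 transcript and the height of a bar is the gene's level. The blue KRT8-215 part is smaller in SNHG10 replicates 2 and 3, while the KRT18 and SPP1 bars are divided differently from library to library in both probe sets.

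The 3 listed transcripts of KRT18 varied far more between libraries than their sum. KRT18-202 stood at 197, 12.7 and 3.85 FPKM in the SNHG10 libraries and 21.8, 3.39 and 239 FPKM with LacZ probes, high in 1 library of each set. KRT18-207 read 47.4, 339 and 267 against 287, 193 and 164 FPKM, and KRT18-201, the main one, 878, 624 and 674 against 702, 803 and 678 FPKM. The 3 transcripts overlap over most of their span. KRT18-202 ranged over 70.4 times between libraries while the gene ranged over 1.19 times.

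KRT19 (ENSG00000171345, chromosome 17, 39679869 to 39684560, minus strand), a type I keratin of bile duct cells, was the steadiest of the markers. Its level was 400, 428 and 407 FPKM in the SNHG10 libraries and 394, 449 and 402 FPKM with LacZ probes. The highest library was LacZ replicate 2 and the groups overlapped, with means of 412 ± 14.4 and 415 ± 29.3 FPKM (SD, 3 libraries each); exact permutation gave p = 0.9. The log2 difference was -0.01 ± 0.09 (SE), with a 95% interval of -0.21 to 0.19 and a limma adjusted p of 0.992; its sign turned with median-ratio or quantile scaling. KRT19-201 held 94.1% to 100% of the gene, and KRT19-202 and KRT19-207 were both listed at 0 in SNHG10 replicate 2.

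KRT7 (ENSG00000135480, chromosome 12, 52626898 to 52642705, plus strand), the type II keratin of bile duct cells, was far lower than KRT19. Its level was 13.9, 18.1 and 21.6 FPKM in the SNHG10 libraries and 20.8, 21.1 and 17.5 FPKM with LacZ probes. SNHG10 replicate 1 was the lowest and SNHG10 replicate 3 the highest of the 6. The means were 17.9 ± 3.89 and 19.8 ± 1.98 FPKM (SD, 3 libraries each), by exact permutation p = 0.7, and the log2 difference of -0.16 had a 95% interval of -0.67 to 0.36 and a limma adjusted p of 0.943. KRT7-201 held 93.7% to 100% of the gene, and KRT7-214 stayed at or under 1.32 FPKM.

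SOX9 (ENSG00000125398, chromosome 17, 70117161 to 70122561, plus strand) has a single listed transcript. Its level was 48.0, 44.9 and 41.4 FPKM in the SNHG10 libraries and 42.0, 50.6 and 45.0 FPKM with LacZ probes, so the highest library was a LacZ one and the lowest an SNHG10 one. The means were 44.8 ± 3.29 and 45.9 ± 4.36 FPKM (SD, 3 libraries each), by exact permutation p = 0.7. The log2 difference was -0.03 ± 0.15 (SE), with a 95% interval of -0.38 to 0.31 and a limma adjusted p of 0.983, and its sign turned with median-ratio or quantile scaling.

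SPP1 (ENSG00000118785, chromosome 4, 88896819 to 88904578, plus strand) varied most among the tested markers. Its level was 31.2, 17.8 and 26.1 FPKM in the SNHG10 libraries and 27.7, 29.7 and 43.8 FPKM with LacZ probes. SNHG10 replicate 2 was the lowest and LacZ replicate 3 the highest, and the groups overlapped. The means were 25.1 ± 6.76 and 33.8 ± 8.80 FPKM (SD, 3 libraries each), and exact permutation gave p = 0.3. The log2 difference was -0.42 ± 0.27 (SE), with a 95% interval of -1.04 to 0.20 and a limma adjusted p of 0.928. It was -0.20 without SNHG10 replicate 2 and -0.22 without LacZ replicate 3. SPP1-203 was the larger transcript in 5 of the libraries, at 22.4, 17.8 and 18.2 against 21.0, 12.4 and 34.9 FPKM. SPP1-201 read 8.82, 0 and 7.94 against 4.34, 17.4 and 8.94 FPKM, and exceeded SPP1-203 in LacZ replicate 2, where it held 58.4% of the gene. SPP1-202 was listed at 0 in 5 libraries and at 2.39 FPKM in LacZ replicate 1.

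CPS1 (ENSG00000021826, chromosome 2, 211421262 to 211543831, plus strand) was listed with 1 transcript at low levels. Its values were 0.626, 0.505 and 0.796 FPKM with SNHG10 probes and 0.883, 1.25 and 1.53 FPKM with LacZ probes. All SNHG10 libraries lay below all LacZ libraries (exact permutation p = 0.1, the smallest possible), but at 1 FPKM or more in 2 libraries it missed the filter. Tested with no filter, its log2 difference was -0.43 with a limma adjusted p of 0.898.

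SERPINA1 (ENSG00000197249, chromosome 14, 94843084 to 94857029, minus strand) also had 1 listed transcript, SERPINA1-208. Its level was 0.414, 0.832 and 0.922 FPKM in the SNHG10 libraries, and 1.24 FPKM in LacZ replicate 1 while it was listed at 0 in the other 2 LacZ libraries. Since a listed 0 may stand for an estimate that failed, no fold is given; with no filter the limma adjusted p was 0.910. The gene is known for separate starts, an outer one used in blood cells and an inner one used in hepatocytes. SERPINA1-208 spans 13946 bases in hg19, and the RefSeq gene spans 13889 bases from its outer and 11856 from its inner start in GRCh38.p14. Both promoters are shown, marked with the same motifs: counted from the start site, the outer holds GGGCGG on the opposite strand at -104 to -99 and the inner holds GTTAAT at -76 to -71.
SERPINA1 outer promoter, chr14:94390586-94390885, minus strand: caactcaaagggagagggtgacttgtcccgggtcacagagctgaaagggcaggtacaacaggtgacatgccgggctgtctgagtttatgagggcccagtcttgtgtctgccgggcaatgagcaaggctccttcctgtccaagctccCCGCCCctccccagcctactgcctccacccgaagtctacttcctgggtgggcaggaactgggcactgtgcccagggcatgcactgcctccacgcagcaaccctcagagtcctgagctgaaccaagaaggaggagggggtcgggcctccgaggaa
SERPINA1 inner promoter, chr14:94388553-94388852, minus strand: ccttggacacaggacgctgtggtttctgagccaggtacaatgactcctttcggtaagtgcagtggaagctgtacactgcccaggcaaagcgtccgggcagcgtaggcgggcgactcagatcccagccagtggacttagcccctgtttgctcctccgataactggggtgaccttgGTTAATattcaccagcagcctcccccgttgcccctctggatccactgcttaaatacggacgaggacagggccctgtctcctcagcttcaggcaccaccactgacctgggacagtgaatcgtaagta

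Few other hepatocyte genes had a row. Of 30 hepatocyte markers 3 were listed, ASS1, CPS1 and SERPINA1, and 27 had no row and were not analysed here, among them ALB, AFP, APOA1, APOB, TTR and the fibrinogen genes FGA, FGB and FGG. Every listed transcript reached at least 0.507 FPKM in some library, so a gene may lack a row because it stayed below such a level or for another reason. ASS1, argininosuccinate synthase, stood at 0.741, 3.07 and 0 FPKM in the SNHG10 libraries and 2.98, 1.84 and 4.81 FPKM with LacZ probes, overlapping (limma adjusted p = 0.907). Of 19 liver transcription factors 6 were listed and 4 tested, 0 of them called; HNF4A and the 3 FOXA genes had no row. CEBPB, an inducible factor of many tissues, averaged 36.2 FPKM and GATA4 4.36 FPKM. GATA4 had the smallest p of that list, at 0.954, 2.92 and 5.26 FPKM against 5.40, 6.96 and 4.66 FPKM (limma adjusted p = 0.907).

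Of 9 urea cycle genes 6 were listed and 5 tested, with 0 called. ASL, argininosuccinate lyase, averaged 13.4 FPKM, NAGS, which makes the activator of CPS1, 7.34 FPKM, and the carrier SLC25A13 6.09 FPKM, all above CPS1. OTC, ARG1 and ARG2 had no row. Of 19 serpins 9 were listed and 7 tested, with 0 called. SERPINE2 averaged 78.2 FPKM and SERPINB6 41.5 FPKM, against 0.568 FPKM for SERPINA1. SERPINE2 had the smallest p, at 99.9, 74.3 and 83.4 FPKM against 79.7, 64.8 and 66.9 FPKM (limma adjusted p = 0.920).

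Biliary and progenitor markers were listed more often. Of 22, 12 had rows and 11 were tested, with 0 called, 2 positive and 9 negative log2 differences and a median of -0.16 against -0.05 over all genes tested. Over all genes tested 56.7% of the differences were negative. The 9 include KRT19, SOX9, SPP1 and KRT7, already counted among the markers above. Of these, SOX9 and KRT19 turned positive with median-ratio or quantile scaling. After KRT19, the most abundant were CD44, the hyaluronan and osteopontin receptor, at 208 FPKM and the anion exchanger SLC4A2 at 56.2 FPKM. THY1, a surface protein of progenitor and stromal cells, had the smallest p, at 8.23, 17.6 and 15.7 against 31.6, 22.0 and 15.1 FPKM (limma adjusted p = 0.903). EPCAM, CD24, PROM1 and CFTR were among the 10 with no row. Of 8 osteopontin receptors 7 were listed and 6 tested, with 0 called and a median log2 difference of 0.05. CD44 read 232, 204 and 232 FPKM against 146, 285 and 150 FPKM, and the integrin chains ITGB1 and ITGA5 averaged 135 and 22.1 FPKM. ITGB5 had the smallest p, at 8.32, 9.36 and 7.99 against 11.9, 20.9 and 12.7 FPKM without overlap (limma adjusted p = 0.885).

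Of 21 keratins 9 were listed and 8 tested, with 0 called, and KRT18, KRT8 and KRT19 were the only 3 with a mean of 100 FPKM or more. Keratins of stratified epithelia, KRT5, KRT14, KRT1 and KRT6A among them, had no row. Of 20 keratin partners and epithelial junction genes 13 were listed and tested, with 0 called and a median log2 difference of -0.09. The cytolinker PLEC averaged 99.3 FPKM, CTNNB1 79.6 FPKM and CTNNA1 67.8 FPKM. The epithelial cadherin CDH1 had no row. DSP, the desmosomal anchor of keratin filaments, read between 0.294 and 1.34 FPKM and had the lowest mean of the 13. The others averaged more: PKP3 28.5, PKP2 18.9, JUP 13.1, TJP1 11.4, EVPL 8.27, OCLN 7.19, DSG2 4.90, PPL 4.12 and CLDN1 1.88 FPKM. CLDN1, a tight junction protein, had the smallest p, at 3.49, 1.27 and 3.04 against 0.849, 1.50 and 1.13 FPKM (limma adjusted p = 0.925). Of 23 Notch, Hippo and SOX family genes 18 were listed and 16 tested, with 0 called, 11 positive and 5 negative log2 differences and a median of 0.19. Over all genes tested 56.7% of the differences were negative and the median was -0.05. CYR61, a secreted target of YAP, averaged 345.5 FPKM, NOTCH2 74.0 FPKM and CTGF 54.3 FPKM. The Notch ligand JAG2 had the smallest p, at 2.53, 1.40 and 1.25 against 0.633, 0.627 and 0.579 FPKM without overlap (limma adjusted p = 0.885).

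**Figure D5:**
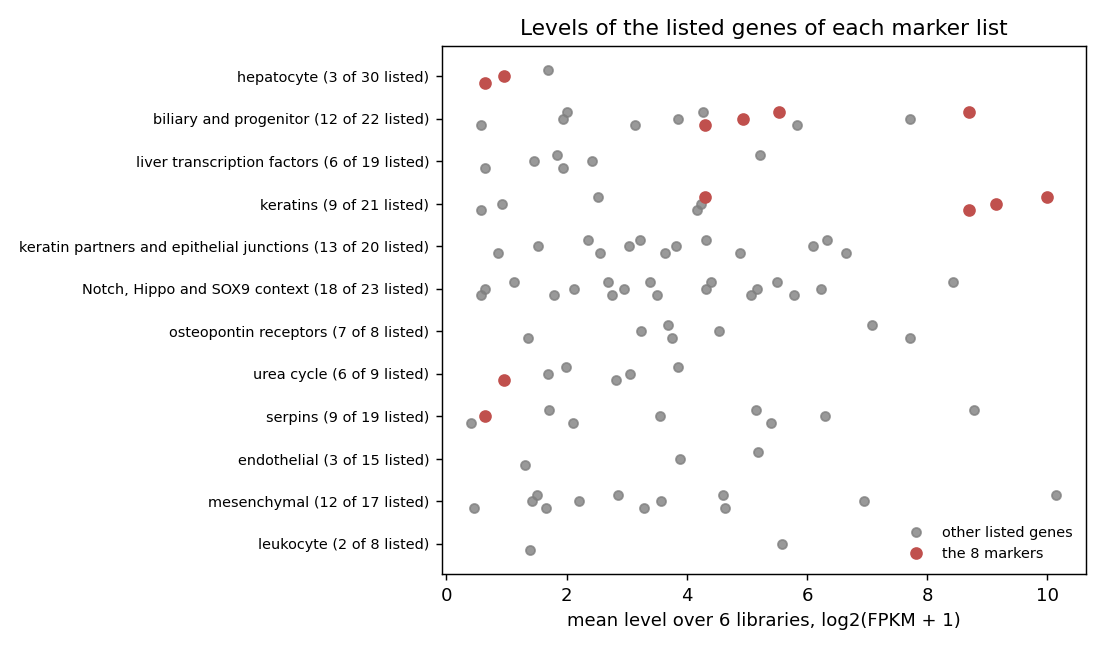
Mean level over the 6 libraries, as log2(FPKM + 1) on the horizontal axis, of each listed gene of 12 marker lists, 1 row per list with the number listed out of the number in the list; red points are the 8 markers described here. The hepatocyte row holds 3 points at the low end, while the biliary row reaches up to KRT19 and the keratin row up to KRT18.

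Markers of other cell types were looked at in the same way, and their part in the results was not tested. Of 15 endothelial markers 3 had rows, ENG at 35.5 FPKM, EGFL7 at 13.8 FPKM and ROBO4 at 1.47 FPKM, summing to 42.4 to 51.2 FPKM with SNHG10 probes and 46.4 to 61.8 FPKM with LacZ probes. The defining PECAM1, VWF, CDH5 and KDR had no row. EGFL7, a secreted protein of endothelium, had the smallest p there, at 8.30, 7.45 and 8.18 FPKM against 26.0, 18.8 and 14.0 FPKM without overlap (limma adjusted p = 0.778). Of 17 mesenchymal markers 12 were listed, summing to 1058 to 1385 and to 1151 to 1718 FPKM. VIM, the intermediate filament of mesenchymal cells, averaged 1133 FPKM, next to KRT18, with FN1 at 123 and ACTA2 at 23.8 FPKM. TAGLN, an actin-binding protein, had the smallest p, at 9.55, 1.93 and 21.0 FPKM against 1.72, 1.38 and 1.99 FPKM (limma adjusted p = 0.885). Of 8 leukocyte markers 2 were listed, CD68 at 47.2 FPKM and CD14 at 1.63 FPKM, summing to 36.8 to 56.1 and to 43.1 to 56.5 FPKM, and PTPRC had no row; CD14 had the smaller p (limma adjusted p = 0.943).

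The genes whose levels over the 6 libraries were most alike to a marker's were, in each case, genes outside the 8. Each was the best of the 10304 genes tested, nearly all of them outside the 8. Neither that nor a high r over 6 libraries therefore sets these genes apart. On log2(FPKM + 1) values the nearest were VPS51 for SOX9 (Pearson r = 0.99), USMG5 for KRT8 (0.99), PAIP2 for KRT18 (0.99), TRIP10 for KRT19 (0.99), REXO4 for KRT7 (0.99) and TMEM106A for SPP1 (0.995) over 6 libraries. KRT18 followed KRT8 at r = 0.55, at rank 1599 among the genes tested. Among the pairs of these 6 markers r ran from -0.84, for KRT18 with KRT7, to 0.65, for KRT18 with SPP1. With 6 libraries that share their totals, these are descriptions only.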

How the data were processed

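Protein-coding transcripts were measured by RNA sequencing in 3 libraries with SNHG10 probes and 3 with LacZ probes. The authors' unit is FPKM for each transcript, as deposited and named in the file headers. The submitters' processing notes name Bowtie2 2.1.0 and hg19, and the program that estimated FPKM is not given in the sources used here. Each file listed the same 28768 transcripts. All were protein-coding, so the noncoding SNHG10 had no row and was not analysed here. FPKM were summed by gene symbol, and the 10304 genes reaching 1 FPKM in 3 or more libraries entered a limma fit (version 3.58.1, R 4.3.3; lmFit, eBayes with trend) on log2(FPKM + 1), Benjamini-Hochberg adjusted, threshold 0.05; transcript rows were tested alike (16618). Intervals and permutation p-values are unadjusted. Single values were compared by two-sided exact permutation over 20 assignments of libraries, with scipy 1.17.1. The fit was tried on the same FPKM values, shuffled between libraries within each row, with chosen rows multiplied by known folds in the SNHG10 libraries. The share of those rows recovered is not given here. Groups and replicate numbers came from the titles.

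The members and lists were chosen with earlier results of these data known. Text names the 8 members and their transcripts, and from each of the 12 lists the 3 listed genes with the highest mean and the tested gene with the smallest p; examples of genes without rows, and DSP, were picked afterwards. A few genes chosen in this way are not reported here. For members with a mean of at least 10 FPKM the gene with the highest Pearson r is named. Alternatives were other pseudocounts, filters and scalings, limma without trend or with robust eBayes, a replicate block, and each library left out; leaving libraries out for ratios and transcript sums was added after seeing the data.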

Additional observations from a re-analysis of the deposited data

How the results depend on the processing

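In each of the 15 alternatives 0 markers were called higher, 0 lower, and 0 of their transcript rows were called. KRT8 kept a negative difference in all 15 (-0.27 to -0.15, limma adjusted p from 0.872 to 0.934), with an unadjusted limma p under 0.05 in 7 of them. KRT8-215 ranged from -0.94 to -0.53 (limma adjusted p from 0.246, without SNHG10 replicate 1, to 0.955). For both, the probe sets did not overlap, so only median-ratio scaling and quantile normalization could have turned the sign. Filters and the trend, robust and block settings leave the estimate unchanged. The replicate block left KRT8 at -0.23 with a limma adjusted p of 0.886 and changed no call. Libraries with the same number deviated from their group means with correlations of 0.015, 0.012 and 0.016, too little to treat numbers as a pairing, although each library correlated best with its own number, a hint from the data only. Signs near 0 turned: with median-ratio scaling SOX9 was 0.0256, KRT18 0.0340 and KRT19 0.0501, and quantile normalization gave 0.0100, 0.0399 and 0.0333 in the same order. With each library left out in turn, SOX9 ranged from -0.093 to 0.038, KRT18 from -0.101 to 0.0226, KRT19 from -0.0454 to 0.0471, KRT7 from -0.298 to 0.0056, SPP1, which stayed negative, from -0.59 to -0.20, and KRT8-201 from -0.00962 to 0.323. The sign also turned for the difference in summed FPKM of the KRT8 transcripts that start within the KRT18 locus (-1.64 to 3.58) and for that in the KRT19 to KRT18 ratio (-0.0108 to 0.031). The difference of the KRT8 to KRT18 ratio was -0.0985 to -0.0647. Its sign could not turn, because the ratios of the probe sets did not overlap. The cause was not tested. Of 363 alternative values 343 kept direction and side of the threshold. Much of that count was fixed in advance. It includes the counts of 0 calls and the settings that leave an estimate unchanged. It also includes left-out libraries for quantities that did not overlap, whose sign could not turn. The count therefore does not measure how stable the results are. Unknown depth limits what CPS1 and SERPINA1 can show.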
